A study of Mus musculus with 8 samples.

Results

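The loci described here are those of 9 mouse genes for making leukotrienes, prostaglandins and related lipids from arachidonic acid. The genes are *Pla2g4a*, *Alox5*, *Alox5ap*, *Lta4h*, *Ltc4s*, *Alox15*, *Ptgs1*, *Ptgs2* and *Hpgds*. They were picked by function among 21951 protein-coding genes, with earlier results of these data known, so they are not a set blind to the data. A peak was counted at a locus when its centre lay inside the gene or within 20 kb of either end in the GENCODE annotation of mm10. By this rule 64 of the 67673 peaks in 4 lists lay at the 9 loci. Peaks were found at 8 of them, and the *Alox15* locus had none.

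X18.1.1 cells, from a mouse AML that arose after irradiation, were used throughout. They have no wild-type *Pu.1*, since they lack 1 copy of the gene and the PU.1 made from the other is mutant in its DNA-binding and PEST domains. Retroviral (MSCV) transduction gave the control line with the empty vector, designated PU.1−, and the line with PuER, designated PU.1+. PuER joins wild-type PU.1 to the part of an oestrogen receptor that responds to 4-hydroxytamoxifen (OHT). Both had been incubated in 100 nM OHT for 2 h, each line was 1 clone, and each was immunoprecipitated for PU.1 and for CEBPA. Every antibody and line had 1 library, so no difference between the lines has a replicate check, no p-values were computed, and the effect of PuER cannot be told apart from other differences between the clones. Both lines also kept the mutant PU.1, which the antibody detects, so a PU.1 peak in PU.1+ may hold either protein. H3K27Ac and IgG libraries were not analysed here.

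A peak is a stretch of genome where reads recovered with the antibody accumulate. The deposited peaks were positions alone, all 400 bp wide, with no height, score or read count, and the depth behind each list is unknown. A locus without a peak is therefore one at which none was called, not one shown to be unbound. For PU.1 the lists contained 5288 (PU.1−) and 15683 (PU.1+) peaks, and for CEBPA 26119 (PU.1−) and 20583 (PU.1+). Peaks of 1 antibody that overlapped between the lines by at least 1 bp are termed shared, and counted in PU.1+ unless stated. The others are termed PU.1−-only or PU.1+-only, after the line in which they were called. Peak lists carry no expression, so neither the identity of the cells nor the activity of these genes was checked with them.

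Eicosanoids are lipid signals, of which prostaglandins are made in most tissues and leukotrienes largely by myeloid cells. Cytosolic phospholipase A2, encoded by *Pla2g4a*, frees arachidonic acid from membranes. In the leukotriene branch, 5-lipoxygenase (*Alox5*) with its membrane partner FLAP (*Alox5ap*) forms an unstable epoxide, which LTA4 hydrolase (*Lta4h*) turns into the neutrophil attractant LTB4 and LTC4 synthase (*Ltc4s*) joins to glutathione to start the cysteinyl leukotrienes. *Alox15* encodes a lipoxygenase that oxidises arachidonic acid at other carbons. In the prostaglandin branch, the cyclooxygenases COX-1 (*Ptgs1*, usually constitutive) and COX-2 (*Ptgs2*, usually inducible) form a common precursor, from which haematopoietic prostaglandin D synthase (*Hpgds*) makes prostaglandin D2. PU.1 is an ETS-family factor needed for myeloid development, and CEBPA is a bZIP factor of the granulocyte and monocyte lineages.

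The sequences below show what lay under the peaks. Each is forward-strand GRCm38 (mm10) reference sequence, 5′ to 3′, from the central 80 bp of a peak, cut to 30 bases where it lay in an untranslated region. The reference is that of C57BL/6J, and the sequence of X18.1.1 itself was not read. Capitals mark exact matches on either strand to GGAAGT (ETS), GAGGAAGT (PU.1-type), CAGGAAGT or CCGGAAGT (ETS1-type), TTGCNNAA (CEBP), TGCGGT or TGTGGT (RUNX), GGAA followed by GAAA with any 2 bases between them (ETS-IRF) and TGANTCA (AP-1), of which the PU.1-type and ETS1-type sequences contain the ETS one. Where none of these matched, capitals mark GGAA or TTCC, the core that ETS factors share. A match is a description of letters and not a binding site. For each locus with a PU.1 peak in PU.1+, the peak nearest the gene's start is shown, with its distance in the direction of transcription (negative, upstream).
*Pla2g4a*, PU.1+-only PU.1 peak, −392 bp, chr1:149961642-149961721: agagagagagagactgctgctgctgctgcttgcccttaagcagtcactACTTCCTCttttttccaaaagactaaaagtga
*Alox5*, PU.1 in both lines, 2231 bp, chr6:116458907-116458986: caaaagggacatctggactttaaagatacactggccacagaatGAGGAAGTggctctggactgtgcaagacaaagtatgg
*Alox5ap*, PU.1+-only PU.1 peak, 287 bp, chr5:149265028-149265057: gcacagcctggcACTTCCcctttctgcgca
*Lta4h*, PU.1+-only PU.1 peak, 40782 bp, chr10:93494153-93494232: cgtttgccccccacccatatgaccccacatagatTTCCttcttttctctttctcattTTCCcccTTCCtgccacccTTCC
*Ltc4s*, PU.1+-only PU.1 peak, 21475 bp, chr11:50217101-50217180: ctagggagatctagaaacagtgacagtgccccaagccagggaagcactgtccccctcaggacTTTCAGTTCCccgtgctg
*Ptgs1*, PU.1+-only PU.1 peak, 700 bp, chr2:36231086-36231165: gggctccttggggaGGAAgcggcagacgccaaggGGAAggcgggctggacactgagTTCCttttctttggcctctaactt
*Hpgds*, PU.1+-only PU.1 peak, 29774 bp, chr6:65115144-65115173: tctcttacacatttccttctgcTGAATCAc

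These 7 windows differed in their letters. *Pla2g4a* and *Alox5* carried the full PU.1-type sequence, on the reverse and the forward strand respectively. The window of *Alox5ap* held only the shorter ETS match. At *Ltc4s* the match was of ETS-IRF type, at *Hpgds* of AP-1 type, and at *Lta4h* and *Ptgs1* there were 4 and 3 bare cores, respectively, with none of the 7 motifs.

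A further 6 windows were chosen after their values were seen, because the results below turn on them. The first 3 are the other PU.1 peaks of PU.1+ with a PU.1-type sequence, followed by a PU.1−-only PU.1 peak, a PU.1+-only CEBPA peak and the CEBPA peak at the start of *Ptgs2*.
*Pla2g4a*, PU.1+-only PU.1 peak, 120182 bp, chr1:149841068-149841147: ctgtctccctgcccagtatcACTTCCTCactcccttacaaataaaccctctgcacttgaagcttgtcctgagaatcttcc
*Alox5*, PU.1+-only PU.1 peak, 5133 bp, chr6:116456005-116456084: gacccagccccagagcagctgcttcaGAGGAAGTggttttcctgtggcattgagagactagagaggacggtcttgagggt
*Alox5ap*, PU.1 in both lines, −18571 bp, chr5:149246156-149246235: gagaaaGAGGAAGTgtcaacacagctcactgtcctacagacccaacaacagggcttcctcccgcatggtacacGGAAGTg
*Alox5*, PU.1−-only PU.1 peak, −7136 bp, chr6:116468274-116468353: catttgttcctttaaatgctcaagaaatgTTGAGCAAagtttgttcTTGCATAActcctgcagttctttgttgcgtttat
*Ptgs1*, PU.1+-only CEBPA peak, 4264 bp, chr2:36234650-36234729: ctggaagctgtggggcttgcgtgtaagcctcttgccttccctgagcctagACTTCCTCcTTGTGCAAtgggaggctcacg
*Ptgs2*, CEBPA in both lines, −60 bp, chr1:150099931-150100010: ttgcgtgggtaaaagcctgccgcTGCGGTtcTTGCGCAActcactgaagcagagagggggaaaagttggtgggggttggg

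At the 9 loci, PU.1 had 7 peaks in PU.1− against 16 in PU.1+, while CEBPA had 22 against 19. PU.1 peaks lay at 4 of the 9 loci in PU.1−, where 23.7% of all coding genes had one, and at 7 in PU.1+, against 41.4% of all coding genes. *Ptgs2* and *Alox15* had no PU.1 peak in either line, as did 53.7% of coding genes. CEBPA peaks lay at 7 of 9 loci in each line, against 56.5% of coding genes in PU.1− and 51.3% in PU.1+. The member genes had a median length of 23.4 kb, against 17.4 kb for all coding genes, and a longer gene offers more room for peaks. Per 100 kb of window, the density of PU.1 peaks at the loci was 1.05 for PU.1− against 2.40 for PU.1+, beside 0.367 and 0.936 over the windows of all coding genes. For CEBPA the densities were 3.31 in PU.1− and 2.86 in PU.1+, beside 1.69 and 1.34. All 4 lists were thus denser at these loci than around coding genes at large, CEBPA included.

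**Figure D1:**
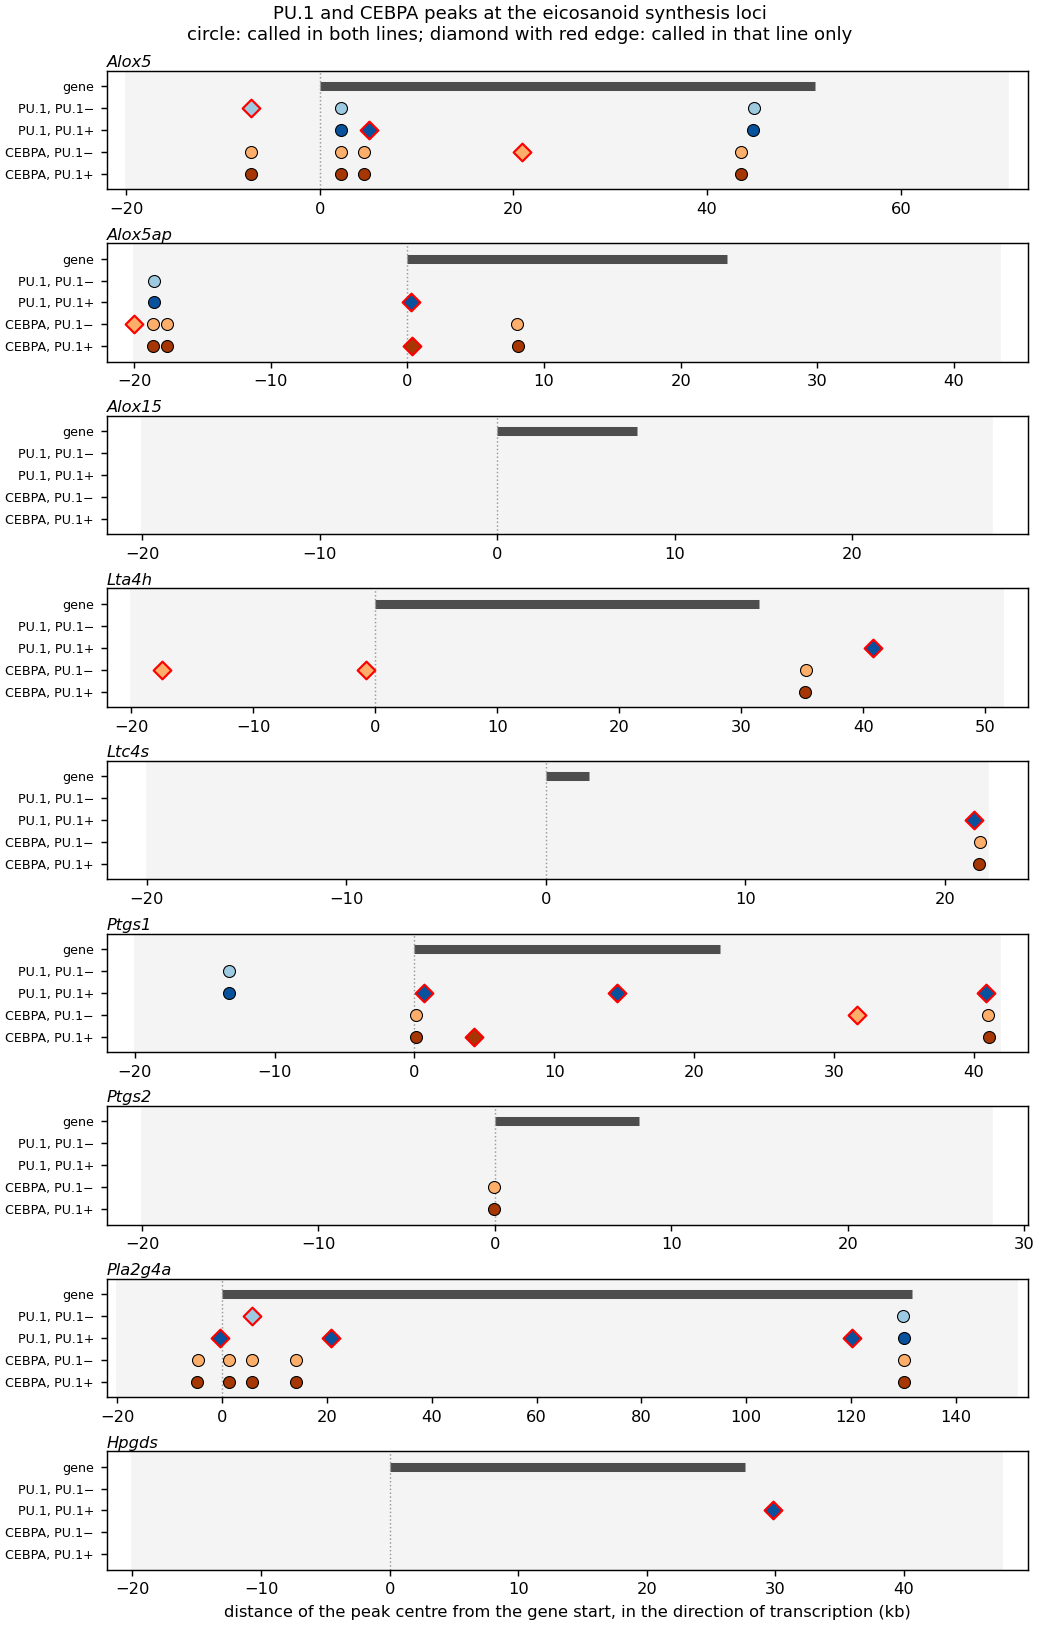
Peak positions at the 9 loci. Each panel is 1 gene on its own scale, with distance from the gene's start along the x axis in kb in the direction of transcription, the gene as a bar and 1 row for each antibody and line; a mark is 1 peak centre, a circle where both lines have the peak and a red-edged diamond where 1 line does. The *Alox15* panel is empty, *Ptgs2* has CEBPA marks only, and *Hpgds* has 1 PU.1 mark downstream of the gene.

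Of the 16 PU.1 peaks in PU.1+, 11 (68.8%, exact Clopper-Pearson 95% interval 41.3 to 89.0) were PU.1+-only, against 81.1% of all PU.1 peaks of that line. These intervals cover counting error only, and peaks at 1 locus are not replicates. The 11 peaks were spread over 7 of the 9 loci, 3 each at *Ptgs1* and *Pla2g4a* and 1 each at *Alox5*, *Alox5ap*, *Lta4h*, *Ltc4s* and *Hpgds*, whereas 36.7% of coding genes had such a peak. At *Lta4h*, *Ltc4s* and *Hpgds*, however, the peak lay inside a neighbouring coding gene (*Hal*, *Mgat4b* and *Smarcad1*, respectively). Inside the gene itself, 4 of 9 members had a PU.1+-only PU.1 peak, against 18.1% of coding genes. The other 5 peaks of PU.1+ were shared, at *Alox5* (2), *Alox5ap*, *Ptgs1* and *Pla2g4a*. Shared PU.1 peaks thus lay at 4 of 9 members, against 13.4% of coding genes. Centres of the 5 shared peaks differed between the lines by 2 to 51 bp. In PU.1−, 2 of 7 peaks (28.6%, 3.67 to 71.0) were called in that line only, 1 at *Alox5* and 1 at *Pla2g4a*, against 43.8% of all its PU.1 peaks. They gave 2 of 9 members, against 13.7% of coding genes.

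Most CEBPA peaks were shared. Of its 19 peaks in PU.1+, 17 (89.5%, 66.9 to 98.7) were shared. Counted by gene, shared CEBPA peaks lay at 7 of 9 members, against 48.3% of coding genes. PU.1+-only peaks were those of *Alox5ap* and *Ptgs1*, 2 of 19 (10.5%, 1.30 to 33.1) against 12.1% of all CEBPA peaks of the line, and 2 of 9 members against 11.4% of genes. In PU.1−, 5 of 22 (22.7%, 7.82 to 45.4) were called in that line only, against 30.7% of all. They fell at 4 of 9 members, against 30.1% of genes, with 2 at *Lta4h* and 1 each at *Alox5*, *Alox5ap* and *Ptgs1*. The shares of CEBPA peaks by class at the loci were near those over the genome.

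**Figure D2:**
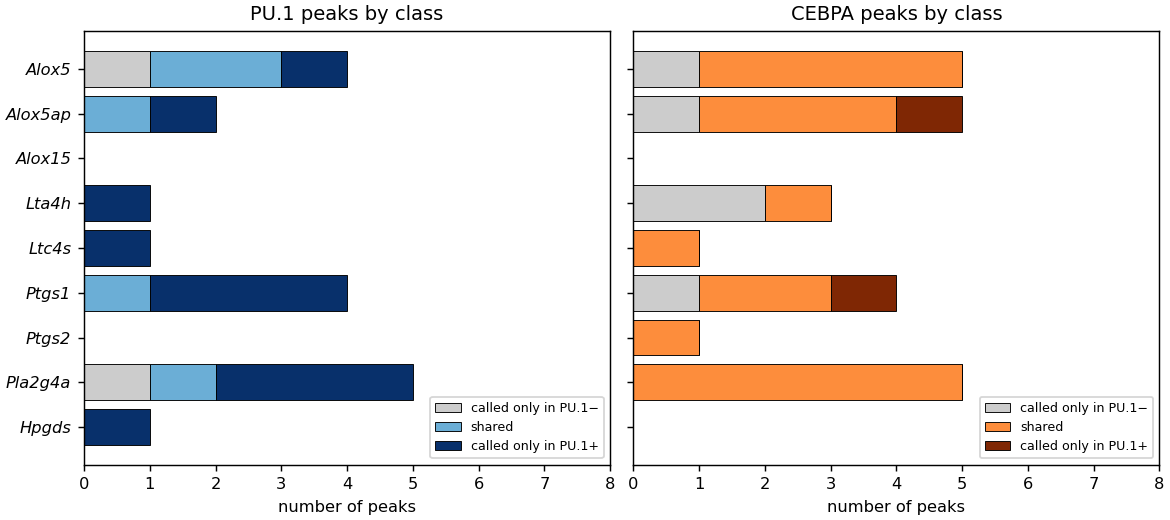
Number of peaks at each of the 9 loci, by class. The PU.1 panel counts 2 PU.1−-only peaks, 5 that are shared and 11 that are PU.1+-only, and the CEBPA panel counts 5, 17 and 2; *Ptgs1* and *Pla2g4a* have the most PU.1+-only PU.1 peaks, 3 each.

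*Pla2g4a* (ENSMUSG00000056220.14, chr1:149829618-149961290, reverse strand) encodes the phospholipase at the head of the pathway and is the longest member, at 132 kb. PU.1 had 2 peaks there in PU.1− against 4 in PU.1+, and CEBPA had 5 in each line. At least as many PU.1 peaks in PU.1+ were found at 4.95% of coding genes, although per 100 kb of window the locus held 2.33, close to the 2.40 of the 9 loci together. One of its PU.1+-only peaks (chr1:149961482-149961881) was centred 392 bp upstream of the start, at the promoter, and another lay 120182 bp into the gene in an intron. Both carried the PU.1-type sequence shown above. The third, at 20851 bp (chr1:149940239-149940638, intron), had 3 GGAA cores in its central 80 bp and no PU.1-type match. None of these 3 overlapped a CEBPA peak of PU.1+. The shared PU.1 peak, 130019 bp into the gene, overlapped CEBPA peaks of both lines. The PU.1−-only peak (chr1:149955437-149955836), 5653 bp into the gene in an intron, lay on a CEBPA peak that both lines had, with centres 17 bp apart in PU.1−. Its central 80 bp held 1 ETS and 1 RUNX match and no CEBP match. All 5 CEBPA peaks of *Pla2g4a* were shared, the remaining ones at 14037, 1335 and −4687 bp in PU.1+.

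*Alox5* (ENSMUSG00000025701.12, chr6:116410077-116461178, reverse strand) encodes 5-lipoxygenase, the enzyme that commits arachidonic acid to leukotrienes. PU.1 had 3 peaks in each line, so the number did not differ although the positions did. The shared intronic peak 2231 bp from the start, shown above with its PU.1-type sequence, was offset by 2 bp between the lines and overlapped CEBPA peaks of both lines, with centres 43 bp apart in PU.1+. A further shared peak lay 44777 bp into the gene, in an intron, and also within 20 kb of *March8*. Called only in PU.1+ was the intronic peak at 5133 bp (chr6:116455845-116456244), which did not overlap CEBPA. The nearest CEBPA centre in the same line was 570 bp away. Upstream, at −7136 bp (chr6:116468114-116468513), PU.1 was called only in PU.1−. There the CEBPA peak was shared, its centre in PU.1− lay 5 bp from that of PU.1, and the window printed above held a pair of CEBP sequences and neither an ETS nor a PU.1-type one, whereas the PU.1−-only peak of *Pla2g4a* held an ETS match. Of all PU.1−-only PU.1 peaks, 42.0% lay on a shared CEBPA peak. CEBPA had 5 peaks in PU.1− against 4 in PU.1+, and the 1 called only in PU.1− was at 20898 bp (chr6:116440080-116440479).

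*Alox5ap* (ENSMUSG00000060063.9, chr5:149264767-149288153, forward strand) encodes FLAP, which presents arachidonic acid to 5-lipoxygenase. It had 1 PU.1 peak in PU.1− and 2 in PU.1+, with 4 CEBPA peaks in each line. At its start, centred in the untranslated part of the first exon, a PU.1+-only PU.1 peak (chr5:149264854-149265253, 287 bp) overlapped a PU.1+-only CEBPA peak (chr5:149264913-149265312, 346 bp) by 341 bp, with centres 59 bp apart. This was the only place at the 9 loci where PU.1+-only peaks of both factors coincided. Such a pair was present at 4.01% of coding genes and took up 5.82% of all PU.1 peaks of PU.1+, and 36.8% of all PU.1+-only CEBPA peaks lay on a PU.1+-only PU.1 peak. The PU.1 window, printed above, held the ETS match, and the central 80 bp of the CEBPA peak held none of the 7 motifs. The shared PU.1 peak lay at −18571 bp (chr5:149245996-149246395), inside the lincRNA gene *Gm29264*, with CEBPA peaks of both lines on it and centres 7 bp apart in PU.1+. CEBPA was also called in both lines, in PU.1+ at −17581 and 8088 bp, and only in PU.1− at −19973 bp (chr5:149244594-149244993), just inside the 20-kb limit.

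*Lta4h* (ENSMUSG00000015889.8, chr10:93453411-93484875, forward strand) encodes the hydrolase that makes LTB4. It had no PU.1 peak in PU.1− against 1 in PU.1+, while CEBPA had 3 in PU.1− against 1 in PU.1+, the largest fall in CEBPA peaks among the 9 loci. The PU.1 peak (chr10:93493993-93494392) lay 9318 bp downstream of the gene, inside *Hal*, which encodes histidine ammonia-lyase. The PU.1−-only CEBPA peaks lay at −17493 bp (chr10:93435718-93436117) and at −718 bp (chr10:93452493-93452892), the latter at the promoter of *Lta4h*. The CEBPA peak that both lines had was 3783 bp downstream of the gene, at the promoter of *Hal*.

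*Ltc4s* (ENSMUSG00000020377.15, chr11:50236461-50238616, reverse strand) encodes the synthase of the cysteinyl leukotrienes and is the shortest member, at 2.16 kb. PU.1 had no peak in PU.1− against 1 in PU.1+, and CEBPA had 1 in each line. The PU.1 peak (chr11:50216941-50217340) was 19320 bp downstream, inside *Mgat4b* and also within 20 kb of *Mrnip* and *Sqstm1*, and it carried the ETS-IRF sequence shown above. It overlapped the shared CEBPA peak by 172 bp, with centres 228 bp apart. All the peaks counted at this locus lay at least 19320 bp from *Ltc4s* itself.

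*Alox15* (ENSMUSG00000018924.6, chr11:70344152-70352031, reverse strand) had no peak of either factor in either line, as did 34.5% of coding genes. The nearest peaks fell just outside the limit, upstream of the gene. CEBPA had a shared peak 20553 bp away in PU.1− and 20593 bp away in PU.1+, and PU.1 had a PU.1+-only peak at 20735 bp (chr11:70372566-70372965). The absence at *Alox15* therefore depended on the distance chosen.

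*Ptgs1* (ENSMUSG00000047250.13, chr2:36230426-36252272, forward strand), which encodes COX-1, had the densest PU.1 peaks of the members in PU.1+. There was 1 PU.1 peak in PU.1− and there were 4 in PU.1+, that is 6.47 per 100 kb of window, with 3 CEBPA peaks in each line. A gene with 3 or more PU.1+-only PU.1 peaks, such as *Ptgs1* and *Pla2g4a*, was found among 6.80% of coding genes. One of the 3 peaks lay in an intron 700 bp from the start (chr2:36230926-36231325), at the promoter, and did not overlap the shared CEBPA peak at 120 bp in PU.1+. Another was intronic at 14502 bp (chr2:36244728-36245127). The last (chr2:36271073-36271472) was 19001 bp downstream of the gene, overlapped a shared CEBPA peak and carried a CEBP sequence. The shared PU.1 peak at −13254 bp lay inside the lincRNA gene *Gm13431*, held a RUNX sequence and overlapped no CEBPA peak. Of CEBPA, 1 peak was called only in PU.1− (chr2:36261896-36262295, 9824 bp downstream) and 1 only in PU.1+ (chr2:36234490-36234889, 4264 bp, intron). In the window of the latter, printed above, a PU.1-type and a CEBP sequence stood 1 base apart, but no PU.1 peak overlapped it and the nearest PU.1 centre in PU.1+ was 3564 bp away. Both sequences together were found in 0.765% of the PU.1+-only CEBPA peaks, or 19 of 2484. Of the 79 such peaks with a PU.1-type sequence, 84.8% had a PU.1 peak of the same line on them, so the peak at *Ptgs1* was among the minority that did not.

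*Ptgs2* (ENSMUSG00000032487.8, chr1:150100031-150108227, forward strand), which encodes COX-2, differed from *Ptgs1* in having no PU.1 peak in either line. The nearest in PU.1+ was 35.5 kb from the gene (chr1:150143564-150143963, PU.1+-only), and the nearest in PU.1− was 56.8 kb away. CEBPA had 1 peak in each line, at almost the same position at the promoter, −62 bp in PU.1− and −60 bp in PU.1+. The printed window held the palindromic CEBP match TTGCGCAA and a RUNX match. A CEBPA peak with no PU.1 peak in either line was the pattern of 19.2% of coding genes.

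*Hpgds* (ENSMUSG00000029919.5, chr6:65117293-65144908, reverse strand), the prostaglandin D synthase, had no PU.1 peak in PU.1− against 1 in PU.1+, and no CEBPA peak in either line. The PU.1 peak (chr6:65114934-65115333) lay 2159 bp beyond the 3′ end of *Hpgds*, in an untranslated exon of *Smarcad1*, which encodes a chromatin remodeller. CEBPA peaks inside *Smarcad1* lay 21199 bp away in PU.1− and 21247 bp away in PU.1+, just outside the limit.

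Values near the 20-kb limit set some of these counts. Just inside it were the *Alox5ap* CEBPA peak at 19973 bp, the *Ltc4s* peaks at 19320 to 19601 bp and the *Ptgs1* peaks at 19001 to 19220 bp. Just outside were a *Ptgs1* PU.1+-only PU.1 peak at 20317 bp, the *Alox15* peaks at 20553 to 20735 bp and those of *Hpgds*. A shared PU.1 peak lay 22323 bp from *Lta4h* in PU.1+.

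In order of PU.1 peaks in PU.1+, *Ptgs1* and *Pla2g4a* (4 each) came before *Alox5* (3), *Alox5ap* (2), *Lta4h*, *Ltc4s* and *Hpgds* (1 each) and *Ptgs2* and *Alox15* (0). With 1 library there is no spread to set between neighbours in this order. Corrected for window length the order began with *Ptgs1* (6.47 per 100 kb), followed by *Alox5* (3.29), *Alox5ap* (3.16), *Ltc4s* (2.37), *Pla2g4a* (2.33), *Hpgds* (1.48) and *Lta4h* (1.40).

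Within the loci, the 16 PU.1 peaks of PU.1+ comprised 8 in introns, 1 in an untranslated exon, 3 upstream and 4 downstream of the gene. Promoters, within 1000 bp of a coding transcript's start, held 3 of the 16 (18.8%, 4.05 to 45.6), against 9.79% of all PU.1 peaks of PU.1+. The PU.1 peaks of PU.1− comprised 4 in introns and 3 upstream, with 0 of 7 at a promoter, for which the exact interval reaches 41.0%, against 24.5% of all. Counted by gene, a PU.1+-only PU.1 peak lay within 1000 bp of the start of *Alox5ap*, *Ptgs1* and *Pla2g4a*, 3 of 9 members against 4.89% of coding genes. CEBPA of either line lay as near the start of *Alox5ap*, *Lta4h*, *Ptgs1* and *Ptgs2*, 4 of 9 against 18.7%. Promoters held 4 of 22 CEBPA peaks in PU.1− (14.6% of all) and 4 of 19 in PU.1+ (15.2% of all). The starts with a PU.1+-only PU.1 peak were thus those of the shared phospholipase, of *Alox5ap* alone in the leukotriene branch and of *Ptgs1* alone in the prostaglandin branch.

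PU.1 and CEBPA peaks overlapped at 5 of the 7 PU.1 peaks in PU.1− (71.4%, 29.0 to 96.3), against 57.6% of all PU.1 peaks of that line. In PU.1+ they overlapped at 6 of 16 (37.5%, 15.2 to 64.6), against 29.8%. Among the 11 PU.1+-only PU.1 peaks there were 3 with a CEBPA peak (27.3%, 6.02 to 61.0), at *Alox5ap*, *Ltc4s* and *Ptgs1*, against 23.2% of all such peaks. The centres were 59 bp apart at *Alox5ap*, but 228 bp at *Ltc4s* and 219 bp at *Ptgs1*, where only the edges overlapped. Among the 5 shared peaks there were 3 (60.0%, 14.7 to 94.7), at *Alox5*, *Alox5ap* and *Pla2g4a*, against 58.2%. A shared PU.1 peak with CEBPA of both lines, present at these 3 of 9 members, was present at 7.19% of coding genes and made up 10.1% of all PU.1 peaks of PU.1+. Both PU.1−-only PU.1 peaks, 2 of 2, lay on CEBPA peaks of PU.1−, against 54.5% of all such peaks. The interval of each of these 4 shares covered the genome-wide value.

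An ETS sequence lay in the central 80 bp of 7 of the 16 PU.1 peaks of PU.1+ (43.8%, 19.8 to 70.1), against 43.5% of all peaks of that list. The PU.1-type sequence lay in 5 (31.2%, 11.0 to 58.7) against 15.2%, and the interval includes the genome-wide share. These 5 were the peaks at *Alox5* (2), *Pla2g4a* (2) and *Alox5ap* printed above, and 3 of them were PU.1+-only. The ETS1-type sequence lay in 0 of 16, which allows up to 20.6%, against 6.43%. CEBP, RUNX, ETS-IRF and AP-1 sequences lay in 1 each, against 7.31%, 11.5%, 11.8% and 3.90% of all. A GGAA core lay in 14 of 16 (87.5%), against 91.1%. In PU.1−, 4 of 7 peaks held an ETS sequence (57.1%, 18.4 to 90.1) against 36.5%, and 1 held the PU.1-type sequence (14.3%, 0.361 to 57.9) against 7.38%. ETS1-type, CEBP and RUNX sequences lay in 1, 1 and 2 of the 7, against 12.0%, 10.5% and 15.9%. A GGAA core lay in all 7, against 80.7%. ETS-IRF and AP-1 sequences lay in 0 of 7, which allows up to 41.0%, against 3.20% and 4.29%.

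CEBPA peaks at the loci held the CEBP sequence in 9 of 19 in PU.1+ (47.4%, 24.4 to 71.1), against 38.2% of all, and in 7 of 22 in PU.1− (31.8%), against 35.6%. The PU.1-type sequence lay in 3 of 19 CEBPA peaks of PU.1+ (15.8%, 3.38 to 39.6), against 1.61% of all CEBPA peaks of that line. Those at *Alox5* (2188 bp) and *Alox5ap* (−18578 bp) lay on the shared PU.1 peaks printed above and so share their sequence. The remaining 1, at *Ptgs1* (4264 bp), had no PU.1 peak on it. In PU.1− it lay in 2 of 22, against 1.24%. The shorter ETS sequence lay in 5 of 19 CEBPA peaks in PU.1+ (26.3%, 9.15 to 51.2) against 10.6%, and in 5 of 22 in PU.1− (22.7%, 7.82 to 45.4) against 9.95%. Over the whole 400 bp it lay in 12 of 19 (63.2%, 38.4 to 83.7) against 33.7%, and in 14 of 22 (63.6%, 40.7 to 82.8) against 32.1%. Most of these peaks are the same places in both lines, so the lines do not give separate evidence. ETS-IRF and AP-1 sequences lay in none of the CEBPA peaks at the loci, for which the exact interval reaches 17.6% in PU.1+ and 15.4% in PU.1−. Over all CEBPA peaks the shares were 1.10% (ETS-IRF) and 4.92% (AP-1) for PU.1+, and 0.838% and 4.36% for PU.1−, so a count of 0 is near what the lists hold.

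**Figure D3:**
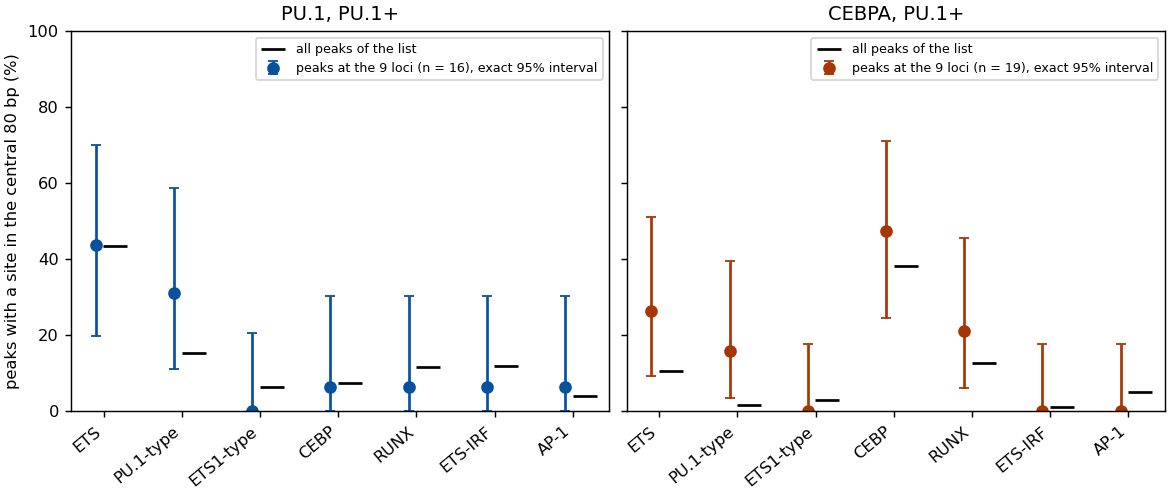
Share of peaks with each sequence in the central 80 bp, in percent, at the 9 loci and over all peaks of the same list. Error bars are exact 95% binomial intervals for the peaks at the loci, with no replicates; the ETS share of PU.1 peaks in PU.1+ is 43.8% at the loci and 43.5% over the list.

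Another 52 genes of the pathway were counted by the same rule. PU.1 peaks lay at 20 of them in PU.1− (23.7% of all coding genes) against 28 in PU.1+ (41.4% of all), and CEBPA peaks at 39 (56.5% of all) and 37 (51.3% of all), respectively. Of the 9 members, 7 had a PU.1+-only PU.1 peak, at 3 of them inside another coding gene. Inside the gene itself 4 members had one, a count not given for the 52. Such a peak in the gene or within 20 kb lay at 21 of the 52 (40.4%), close to the 36.7% of all coding genes. By role these were 6 of 12 phospholipases, 3 of 5 other lipoxygenases, 1 of 7 leukotriene and glutathione-adduct enzymes, 3 of 10 prostanoid enzymes, 2 of 3 transporters and 6 of 14 receptors. *Ephx2*, a soluble epoxide hydrolase, had no peak in any list, and the same was true of *Pla2g4c*, *Mgst3*, *Cbr1*, *Slco2a1* and *Cysltr1*. These were 6 of 52, against 34.5% of all coding genes. Some of these genes are neighbours and share peaks, so the 51 PU.1 peaks counted in PU.1+ were 47 distinct ones.

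At least 3 PU.1+-only PU.1 peaks were found at *Tbxas1* and *Ptgir* alone among the 52, whereas 6.80% of all coding genes had as many. *Tbxas1* encodes thromboxane synthase, which uses the same precursor as *Hpgds*, and is 209 kb long. It had 8 PU.1+-only PU.1 peaks and 1 shared, the latter at 131982 bp with CEBPA of both lines on it, and its CEBPA peaks were 5 shared and 2 PU.1−-only. *Ptgir*, the prostacyclin receptor gene, had 3 PU.1+-only PU.1 peaks, at −6276, −2912 and 3587 bp, and a PU.1+-only CEBPA peak at 1558 bp beside 3 shared ones.

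PU.1+-only CEBPA peaks lay at 8 of the 52, against 11.4% of coding genes. Besides *Ptgir* these were *Pla2g7* (a phospholipase that inactivates platelet-activating factor), *Ggt1* (a glutamyl transferase that trims cysteinyl leukotrienes), *Ptgr1* (a prostaglandin reductase), *Abcc4* (an exporter of prostanoids) and the receptor genes *Ptgdr2*, *Ptgfr* and *Tbxa2r*. At *Pla2g7* the CEBPA peak at 5750 bp lay on a PU.1+-only PU.1 peak at 5785 bp, the arrangement also seen at the start of *Alox5ap*. *Tbxa2r*, the thromboxane receptor gene, also had 4 PU.1−-only CEBPA peaks.

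**Figure D4:**
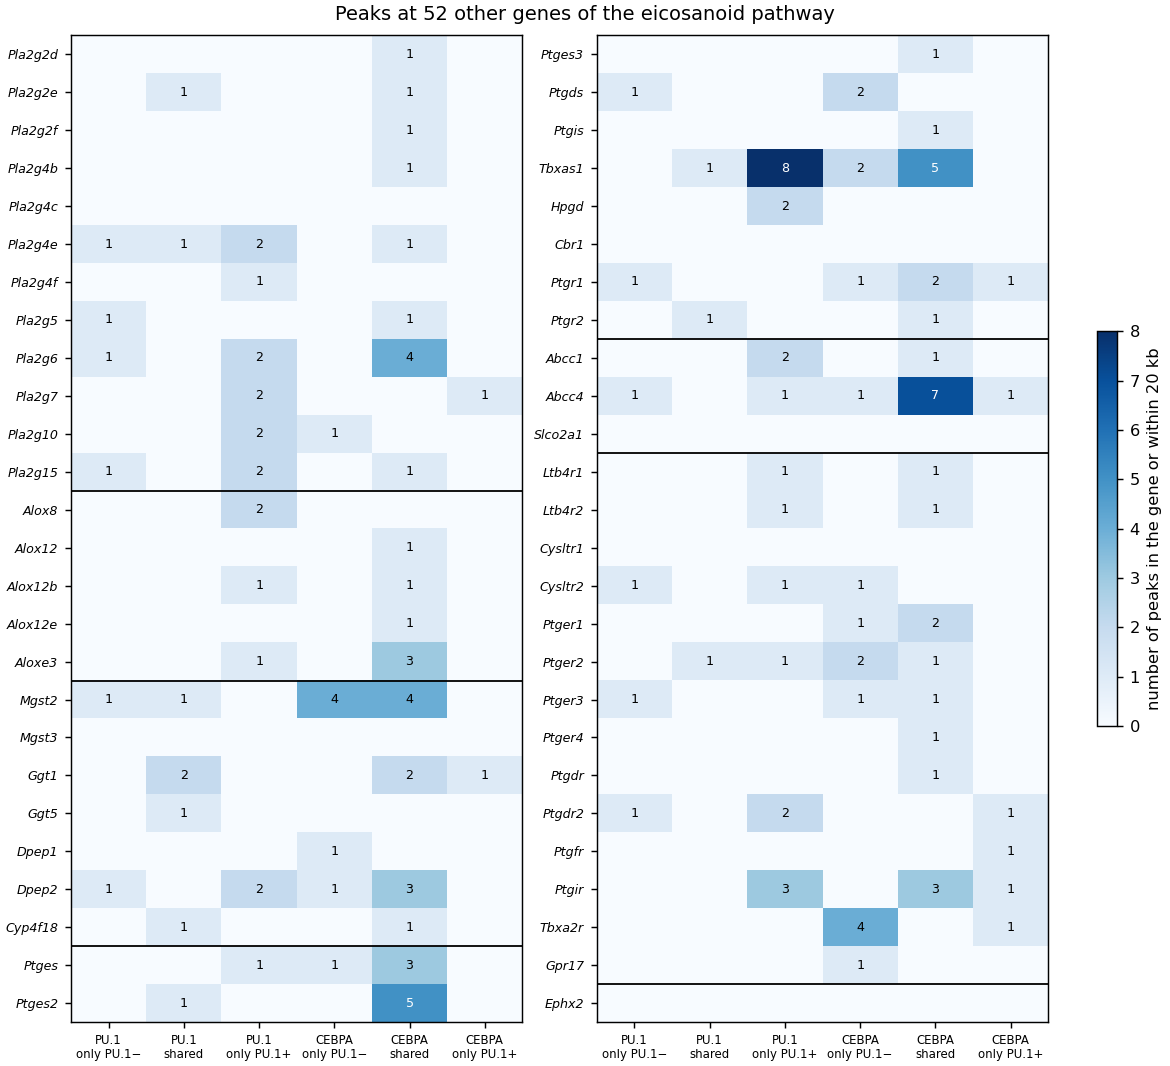
Number of peaks of each class at the 52 other pathway genes, grouped by role, with the colour giving the number of peaks in the gene or within 20 kb for each antibody and class. *Tbxas1* has the highest count of PU.1+-only PU.1 peaks, 8, while 6 of the 52 have no peak in any class.

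The genes most like the members with the most PU.1+-only PU.1 peaks were found by summing the differences in the 6 class counts over the 4 lists. For *Ptgs1*, 3 coding genes had identical counts, *Ppp2r1b* (48.9 kb), *Cdh26* (56.8 kb) and *Hormad2* (95.3 kb), all longer than *Ptgs1*. For *Pla2g4a*, 8 genes differed by 1 peak in all, and those nearest in length were *Lrrc8d* (132 kb), *Lgmn* (45.7 kb) and *Myb* (36.0 kb).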

How the data were processed

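Reads had been mapped to mm10 (GRCm38) and peaks called by the authors, with Bowtie2 2.0.6 and MACS2 2.0.10 per the submitters' processing notes, and the calling threshold is not given in the sources used here. The deposited values were positions only (chromosome, start and end of each peak), 1 list per antibody and line, so weak peaks near the calling threshold can change class and depth could not be corrected for. The members and gene lists were chosen with earlier results of these data known.

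Peaks were placed against GENCODE M21 genes by their centres, divided by overlap of at least 1 bp, and searched on both strands for the motifs in the central 80 bp. All 9 members are named, with other pathway genes that had 3 or more PU.1 peaks or any CEBPA peak called only in PU.1+, the 3 genes most like the leading member (here 2 members tied), and neighbouring genes. Intervals are exact (Clopper-Pearson, 95%). On simulated data with known answers, 100% of 2400 peaks were put in their class and 100% of 20 planted motif sites were found. That checked the code alone, and not how peak calling or depth affects the classes. The software was samtools 1.23.1 and Python 3.11.15 with pysam 0.24.0, pandas 2.3.3, matplotlib 3.10.9, numpy 2.4.6 and scipy 1.17.1.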

Additional observations from a re-analysis of the deposited data

How the results depend on the processing

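Of 69 alternative values, 53 were within 1.5 times the reported one. Within 10 kb, shared PU.1 peaks numbered 3, PU.1−-only CEBPA peaks 3, and PU.1 peaks of PU.1+ overlapping CEBPA 3. Within 50 kb there were 18 PU.1+-only PU.1 peaks, 26 shared CEBPA peaks and 9 PU.1−-only CEBPA peaks. Inside genes alone, 4 members had a PU.1+-only PU.1 peak, with 6 such peaks, 3 shared, 1 called only in PU.1−, 9 shared CEBPA peaks, 1 PU.1−-only CEBPA peak and 3 overlaps. A narrower window holds fewer peaks by construction, and coding genes with a PU.1+-only PU.1 peak ranged from 18.1% (gene alone) through 29.3% (10 kb) to 52.7% (50 kb). Members with such a peak numbered 6 of 9 within 10 kb and 9 of 9 within 50 kb. Without *Ptgs1*, PU.1+-only CEBPA peaks numbered 1, and without *Pla2g4a*, PU.1−-only PU.1 peaks numbered 1. Over whole peaks, 12 of the 16 PU.1 peaks of PU.1+ held an ETS sequence, against 64.5% of the list. When sharing needed 50% overlap or centres within 100 bp, 4 of the 16 overlapped CEBPA. The overlaps lost were those of the PU.1+-only peaks at *Ltc4s* and *Ptgs1*, and the share of all PU.1 peaks under these rules is not given. Unknown depth limits every peak called in 1 line only. No paired analysis was possible because each antibody and line had 1 library and no result came from a test.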
